A study of Solanum lycopersicum with 6 samples.

Results

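The 5 genes described here make or transmit brassinosteroids, the plant steroid hormones. They are DET2 (Solyc10g086500.1), CPD (Solyc06g051750.3) and DWARF (Solyc02g089160.3) in synthesis, and BRI1 (Solyc04g051510.1) and BZR1 (Solyc04g079980.3) in signalling. They were chosen by gene ID, and all 5 were found among the 34075 gene IDs that both of the authors' deposited tables list. The RNA came from dormant buds in the leaf axils, the buds that can grow into side shoots, of tomato plants of the cultivar MT at 25 days after germination. The first genotype, titled 156OE and called miR156-OE below, is known from the study as an overexpressor of the microRNA miR156. The second, rSBP15, is titled rSBP15OE, which marks it as an overexpressor too, and is known from the study as a form of the SBP-box gene SBP15 that miR156 does not target. The third is WT in the same cultivar, called MT below. Each genotype had 2 libraries, each from about 20 buds pooled from 4 to 5 plants. The promoters behind the transgenes and the number of independent lines are not given in the labels.

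Brassinosteroids are made from plant sterols in a chain of reductions and oxidations, and in tomato they promote the outgrowth of axillary buds. DET2 is a steroid reductase early in the chain. CPD is a cytochrome P450 of the chain, and DWARF is the cytochrome P450 that catalyses late oxidations towards the active hormone. The hormone is bound at the cell surface by the receptor kinase BRI1, and the signal reaches the nucleus through BZR1, a transcription factor. In Arabidopsis, BZR1 binds and represses synthesis genes, CPD among them, so that transcripts of these genes are commonly lower when signalling is high and higher when it is low.

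For each gene the tables give the log fold change with its p-value, in miR156-OE over MT and in rSBP15 over MT. They hold no level, no depth and nothing on single libraries. The logarithm's base is unstated, so changes are given as deposited and are not turned into folds, and levels of different genes could not be compared. A gene counts as detected where its log fold change was other than 0. This held for 24920 genes in miR156-OE over MT and for 25329 in rSBP15 over MT, and all 5 genes were among them in both. The standard error (SE) of each change was recovered from the deposited values and equals the residual SD of 2 libraries against 2. No ID is paired with a gene name in the tables, so neither the overexpressed genes nor bud markers could be checked by name. A check of them by ID is not reported here. The p-values measure the spread between these pooled libraries. In bulk buds, less RNA per cell and fewer expressing cells cannot be told apart.

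In rSBP15 buds the transcripts of CPD and DWARF, both synthesis enzymes, were listed below MT at 10.6 and 5.98 times their standard errors. Each error rests on 2 residual degrees of freedom, and the adjusted p-values (limma-type test) were 0.0564 for CPD and 0.0855 for DWARF. A p at least as small as that of CPD was seen in 7.07% of detected genes there, and for DWARF in 17.3%. DET2, BRI1 and BZR1 were within 1.26 standard errors of MT in rSBP15 buds. In miR156-OE buds CPD was the 1 gene of the 5 whose libraries could be shown to lie apart from MT, on the higher side, beside 37.9% of all detected genes whose libraries lay apart. None of the 5 genes passed an adjusted p of 0.05 in any of the 3 comparisons, using limma-type tests and Benjamini-Hochberg adjustment over all detected genes. Of all detected genes, 0.0201% passed in miR156-OE over MT and 5.58% in rSBP15 over MT. In rSBP15 over miR156-OE 0% passed at the summed residual variance, the largest possible, and 7.77% passed under the mean residual variance. This 0% does not show that the lines were alike. At an unadjusted p under 0.05 there was 1 of 5 in miR156-OE over MT, beside 13.2% of all detected genes. There were 2 of 5 in rSBP15 over MT, beside 33.3%, and 2 of 5 in rSBP15 over miR156-OE, beside 21.7%.

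**Figure D1:**
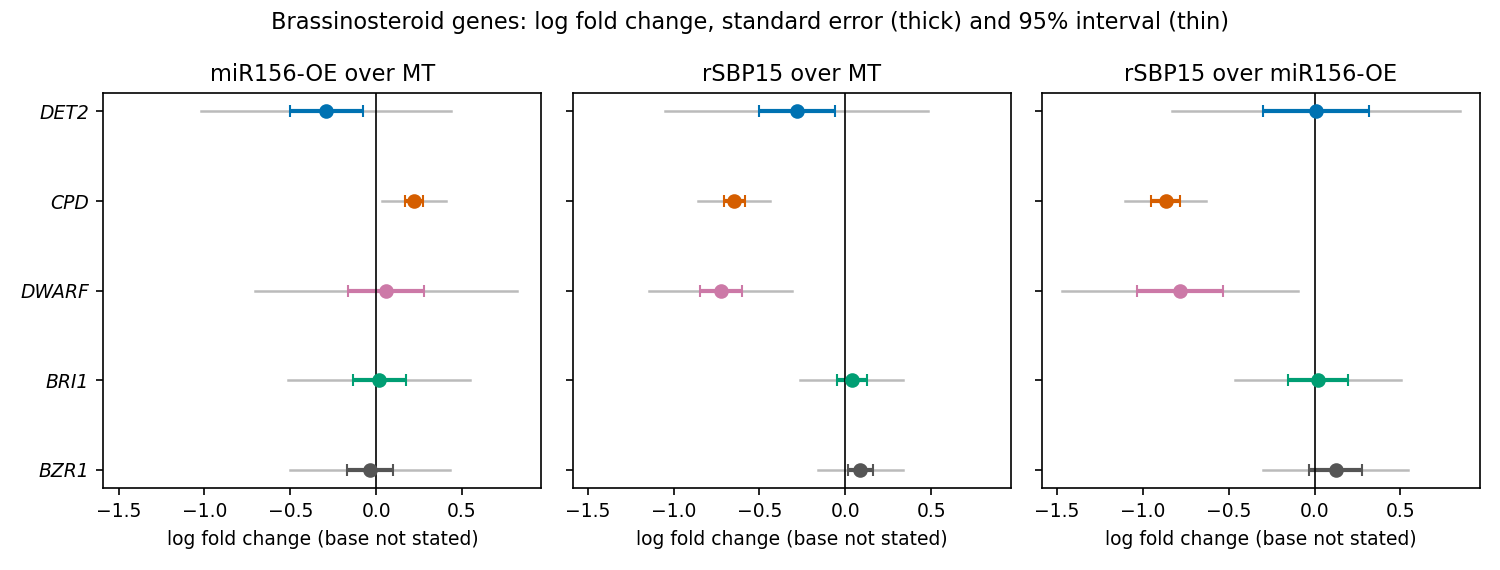
Log fold change (x axis, base not stated) of the 5 genes in miR156-OE over MT, rSBP15 over MT and rSBP15 over miR156-OE, with the recovered standard error as a thick bar and the 95% interval as a thin bar. CPD lies right of 0 at 0.22 in miR156-OE over MT and left of 0 at -0.65 in rSBP15 over MT, DWARF lies left of 0 with its whole interval in the panels with rSBP15, and BRI1 lies near 0 in each panel.

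CPD had the smallest error of the 5 genes. For rSBP15 over MT the authors' deposited table lists it at -0.65 (SE 0.0612, 95% interval -0.86 to -0.44). A change of at least this size was seen in 7.23% of detected genes. The authors' deposited table gives p = 0.00399, and adjusted over all detected genes this became 0.0564, just above the threshold. In the same comparison 1414 of 25329 genes, or 5.58%, passed. By p-value CPD ranked at place 1792 of those 25329, behind the 1414 that passed.

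For miR156-OE over MT the sign was the opposite, and the authors' deposited table lists CPD at 0.22 (SE 0.0543, 95% interval 0.032 to 0.41). Its p was 0.0358 in the authors' deposited table and 0.339 after adjustment. Only 5 of 24920 genes, or 0.0201%, passed here. By these values CPD was listed highest in miR156-OE, then in MT, and lowest in rSBP15. No step of that order passed the adjusted threshold, and the step between miR156-OE and MT did not pass under any alternative that adjusted the p-values (0.143 to 0.525).

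The recovered spread bounds how far apart replicate libraries can lie. With 2 libraries against 2, the groups cannot overlap where the change is more than the square root of 2 times its standard error, and they must overlap where it is smaller than the standard error. For CPD the libraries of miR156-OE and MT could not overlap, nor could those of rSBP15 and MT, nor those of rSBP15 and miR156-OE. Such separation was frequent and is no test: it held for 37.9% of detected genes in miR156-OE over MT, for 62.3% in rSBP15 over MT and for 48.4% in rSBP15 over miR156-OE. For CPD the distance between replicates was at most 0.109 in miR156-OE, between 0.0564 and 0.122 in rSBP15, and at most 0.109 in MT, in the same log units.

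DWARF, the late oxidase, had a value in rSBP15 over MT of about the size of that of CPD, with a larger error. The authors' deposited table lists DWARF at -0.73 for rSBP15 over MT (SE 0.121, 95% interval -1.14 to -0.31). Of the detected genes, 5.75% had a change of at least this size. The authors' deposited table gives p = 0.0148, which became 0.0855 after adjustment. By p-value DWARF ranked at place 4386 of 25329 genes, so that 17.3% had a p at least as small. As for CPD, the libraries of rSBP15 and MT could not overlap, which held for 62.3% of detected genes.

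In miR156-OE over MT, DWARF stands at 0.057 in the authors' deposited table (SE 0.220, 95% interval -0.70 to 0.82, adjusted p = 0.932), and the libraries overlapped. The spread lay mostly in miR156-OE: its 2 libraries were between 0.368 and 0.441 apart for DWARF, while those of rSBP15 and of MT were at most 0.243 apart. DWARF was listed lowest in rSBP15, a step that did not pass the adjusted threshold, and the order of miR156-OE and MT could not be told.

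DET2, the reductase early in the chain, had nearly equal values in both lines. The authors' deposited tables list it at -0.29 in miR156-OE over MT (SE 0.211, 95% interval -1.02 to 0.44) and at -0.28 in rSBP15 over MT (SE 0.223, 95% interval -1.05 to 0.48). These comparisons share the MT libraries, so the values stand side by side and their likeness is no independent result. After adjustment the p-values were 0.662 in miR156-OE over MT and 0.437 in rSBP15 over MT. Whether the libraries overlapped could not be determined in either comparison. DET2 had the largest standard error of the 5 genes in rSBP15 over MT, with rSBP15 replicates between 0.147 and 0.446 apart, and its intervals include changes as large as those of CPD and DWARF.

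**Figure D2:**
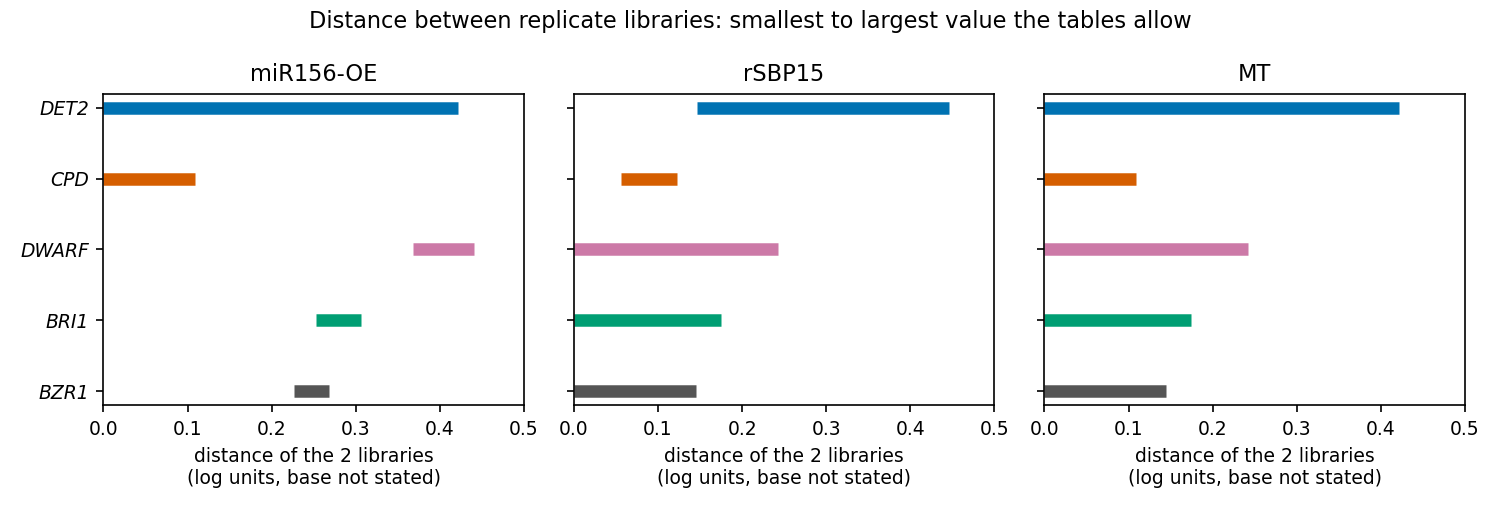
Range of the distance between the 2 replicate libraries (x axis, log units of unstated base) that the deposited values allow for each gene in miR156-OE, rSBP15 and MT. For DWARF, BRI1 and BZR1 the miR156-OE range lies wholly above those of rSBP15 and MT, and for CPD no pair of replicates can be more than 0.122 apart.

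The signalling genes had smaller values. BRI1, the receptor, is listed at 0.018 for miR156-OE over MT in the authors' deposited table (SE 0.153, 95% interval -0.51 to 0.55, adjusted p = 0.971). For rSBP15 over MT the authors' deposited table lists BRI1 at 0.038 (SE 0.0873, 95% interval -0.26 to 0.34, adjusted p = 0.763). The libraries overlapped in both comparisons, and 70.6% of detected genes had a change of at least that size in rSBP15 over MT. The interval in rSBP15 over MT did not reach the values of CPD and DWARF there.

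BZR1, the transcription factor, is at -0.035 for miR156-OE over MT in the authors' deposited table (SE 0.134, 95% interval -0.50 to 0.43, adjusted p = 0.931), and its libraries overlapped with those of MT. For rSBP15 over MT the authors' deposited table has it at 0.087 (SE 0.0724, 95% interval -0.16 to 0.34, adjusted p = 0.457), and whether the libraries overlapped could not be determined. The miR156-OE replicates of BZR1 lay 0.226 to 0.269 apart, against at most 0.145 in rSBP15 and in MT. Those of BRI1 lay 0.252 to 0.307 apart, against at most 0.175 in rSBP15 and in MT. For both signalling genes the order of the 3 genotypes could not be told beyond their spread. Transcript levels alone were measured, and BZR1 protein, whose activity is set by phosphorylation, was not.

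The direct comparison asked whether the lines differed from each other. It used the difference of the log fold changes, in which the shared MT libraries cancel. CPD had a difference of -0.87 in rSBP15 over miR156-OE (SE 0.0818 at most, 95% interval -1.10 to -0.63). Its unadjusted p of 0.00149 put it at place 384 of 25657 genes. Its adjusted p of 0.0991 was the smallest that any gene reached, and 417 genes shared it. At this residual variance, the largest the tables allow, 0 of 25657 genes (0%) passed the limma-type test, and 5569 had an unadjusted p under 0.05.

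DWARF had a difference of -0.78 in rSBP15 over miR156-OE (SE 0.252 at most, 95% interval -1.47 to -0.095, adjusted p = 0.200). A p at least as small was seen in 18.3% of genes. The libraries of rSBP15 and miR156-OE could not overlap for DWARF, which held for 48.4% of detected genes. For DET2 the difference was 0.0080 (95% interval -0.83 to 0.85), for BRI1 it was 0.020 (-0.47 to 0.51), and for BZR1 it was 0.12 (-0.30 to 0.54). The adjusted p-values were 1 for DET2, 1 for BRI1 and 0.705 for BZR1. These intervals are too wide to show that the lines were alike.

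**Figure D3:**
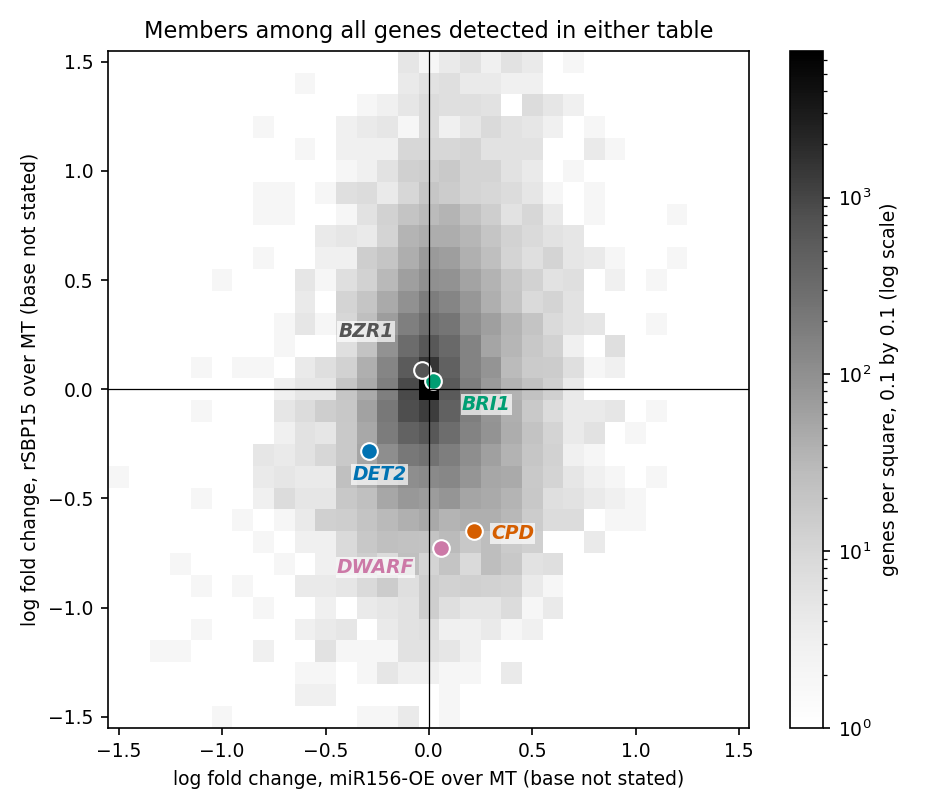
Log fold change in miR156-OE over MT (x axis) and rSBP15 over MT (y axis, base not stated for either) of genes detected in at least 1 table, as counts in squares of 0.1 by 0.1 on a log grey scale; genes beyond the axes are not drawn, and both axes share the MT libraries. DWARF and CPD lie low, at -0.73 and -0.65 on the y axis, DET2 lies below 0 on both axes, and BRI1 and BZR1 lie among the densest squares.

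The test decided where CPD and DWARF stood against the threshold. For CPD in rSBP15 over MT the adjusted p was 0.0278 with the variance moderation refitted on detected genes alone, where 14.7% of all genes passed. With all 6 libraries in 1 fit it was 0.0203 under the largest residual variance and 0.0089 under the smallest, where 11.1% and 19.5% of all genes passed. With no moderation it was 0.121, and 0.17% of genes passed, and with adjustment over all rows it was 0.0758. DWARF passed in rSBP15 over MT in 1 of these 5 alternatives, at 0.0462 with the moderation refitted.

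For rSBP15 over miR156-OE, CPD had an adjusted p of 0.0370 under the mean residual variance, where 7.77% of all genes passed. With all 6 libraries in 1 fit it was 0.0107 under the largest residual variance and 0.0048 under the smallest, where 14.4% and 23.2% passed. With no moderation it was 0.334, and with adjustment over all rows it was 0.132. DWARF passed in 1 of the 5 alternatives, at 0.0427 with all 6 libraries and the smallest variance. DET2, BRI1 and BZR1 did not pass in any comparison under any alternative run.

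**Figure D4:**
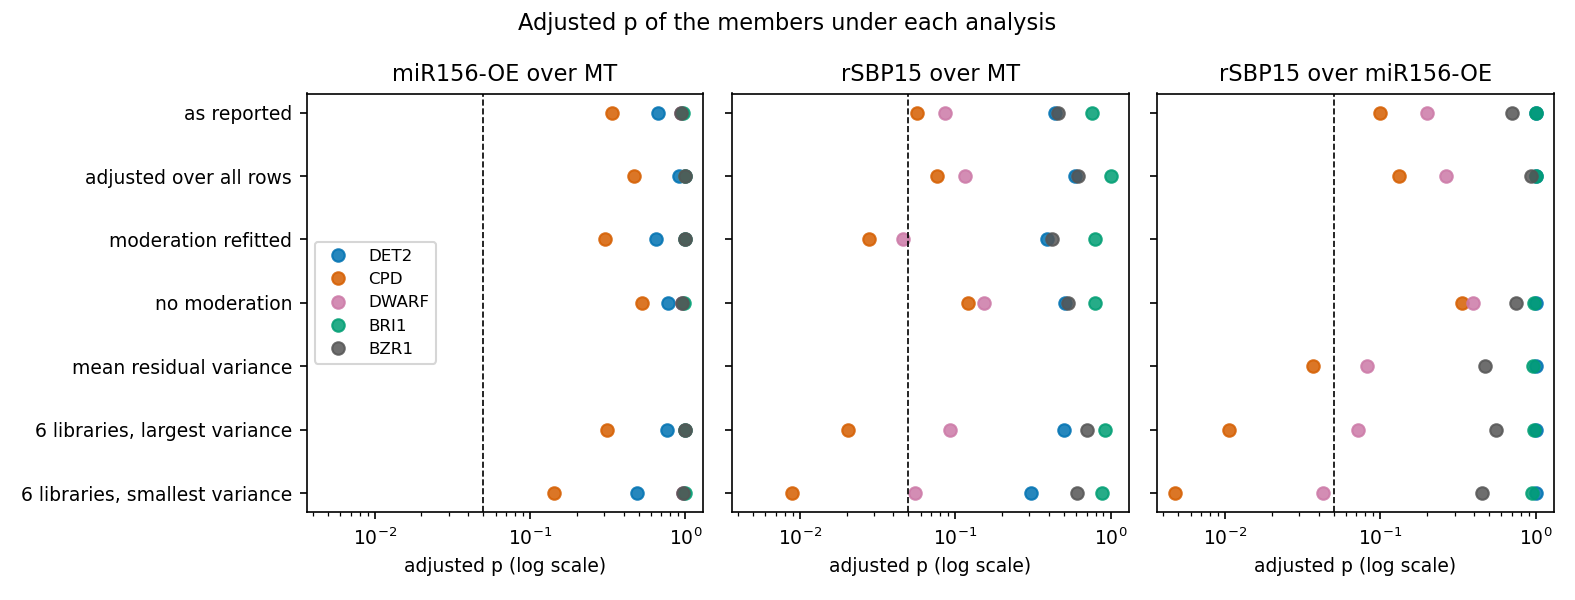
Adjusted p (x axis, log scale) of the 5 genes under each analysis (rows), in miR156-OE over MT, rSBP15 over MT and rSBP15 over miR156-OE, with a dashed line at 0.05; a row without points was not run for that comparison. CPD crosses the line in both panels with rSBP15, DWARF crosses it in 1 analysis of each, and no gene crosses it in miR156-OE over MT.

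As a list, the 5 genes were not alike. Their median log fold change was 0.018 in miR156-OE over MT, beside -0.00059 over all detected genes, and -0.28 in rSBP15 over MT, beside 0.00053. With 5 genes the median is the value of a single gene, BRI1 in miR156-OE over MT and DET2 in rSBP15 over MT. In rSBP15 over MT the 3 synthesis genes had values below 0 and the 2 signalling genes had values above it. DET2, BRI1 and BZR1 were within 1.26 standard errors of MT there, so their signs could not be told. Of all 25329 detected genes, 12531 were below 0 in rSBP15 over MT. The median standard error of the 5 genes was 0.153 in miR156-OE over MT and 0.0873 in rSBP15 over MT, against 0.0624 and 0.0514 over all detected genes.

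A further 7 gene IDs were set down as pathway genes from general knowledge of tomato. Neither the tables nor the reference table names them, so they are given without names or roles. All 7 were detected in both tables, and 0 passed an adjusted p of 0.05 in any of the 3 comparisons by the limma-type test. Over all detected genes 0.0201% passed in miR156-OE over MT and 5.58% in rSBP15 over MT. In rSBP15 over miR156-OE 0% passed at the summed residual variance and 7.77% under the mean residual variance, where the 7 IDs are not reported. At an unadjusted p under 0.05 in rSBP15 over MT there was 1 higher, beside 17.1% of all detected genes, and there were 4 lower, beside 16.2%. In miR156-OE over MT there was 1 higher, beside 5.94%, and there were 2 lower, beside 7.3%. In rSBP15 over miR156-OE there was 1 higher, beside 11.1%, and 1 lower, beside 10.6%. Their median log fold change was -0.10 in miR156-OE over MT and -0.086 in rSBP15 over MT.

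Of these IDs, Solyc02g085360.4 had the signs of CPD at smaller size. The authors' deposited tables list it at 0.14 in miR156-OE over MT (SE 0.0269, adjusted p = 0.297) and at -0.17 in rSBP15 over MT (SE 0.0190, adjusted p = 0.0609). In rSBP15 over miR156-OE it was at -0.31 (SE 0.0329 at most, adjusted p = 0.105). Solyc12g089040.3 had the largest change of the 7 in rSBP15 over MT, at -0.48 in the authors' deposited table (SE 0.0474, adjusted p = 0.0578). For miR156-OE over MT the authors' deposited table lists it at -0.19 (SE 0.0911, adjusted p = 0.525).

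Solyc12g099830.2 was the 1 ID of the 7 above 0 in rSBP15 over MT, at 0.25 in the authors' deposited table (SE 0.0566, adjusted p = 0.115). In miR156-OE over MT the authors' deposited table lists it at 0.00065 (SE 0.0543, adjusted p = 0.997). Solyc04g072570.3 is at -0.23 in miR156-OE over MT (SE 0.136) and at -0.43 in rSBP15 over MT (SE 0.119) in the authors' deposited tables. Solyc01g104970.3 had the lowest p of the 12 genes in miR156-OE over MT, where the authors' deposited table lists it at -0.10 with p = 0.00235 (SE 0.0078, adjusted p = 0.172), at place 340 of 24920 genes. In rSBP15 over MT the authors' deposited table lists it at -0.086 (SE 0.0206, adjusted p = 0.123). The other two, Solyc02g072300.4 and Solyc10g047140.2, are listed between -0.14 and -0.029 in the authors' deposited tables.

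**Figure D5:**
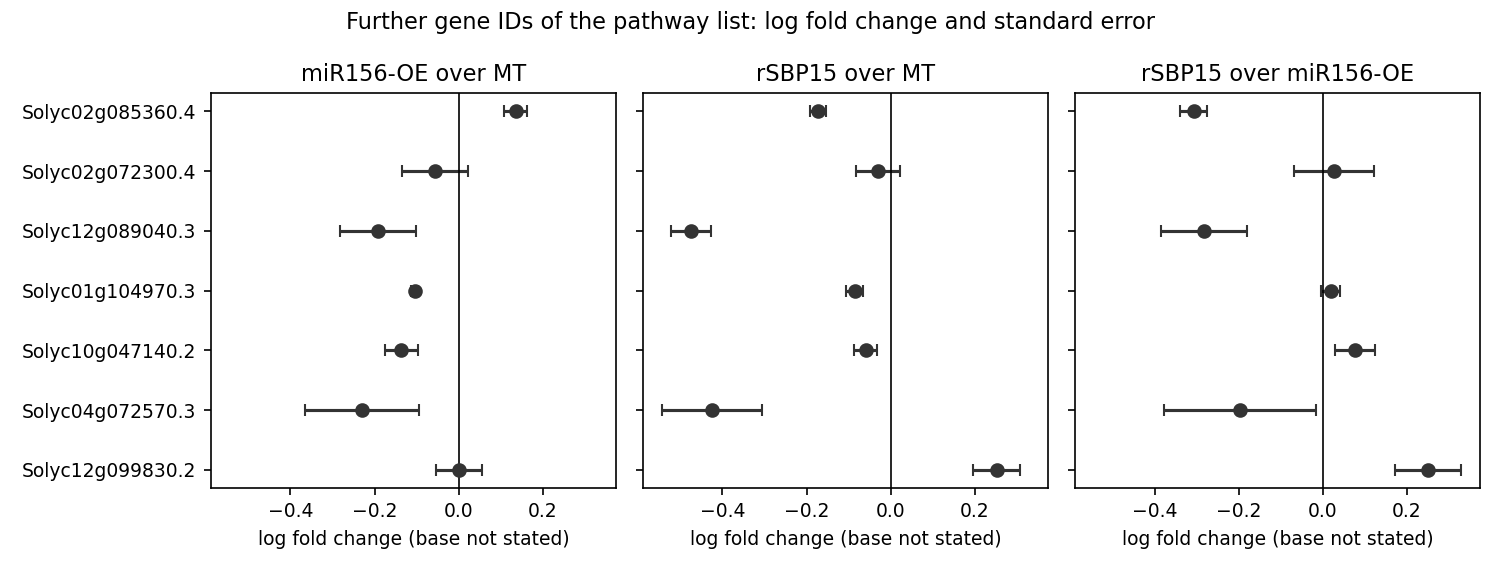
Log fold change (x axis, base not stated) with the recovered standard error of the 7 further gene IDs in miR156-OE over MT, rSBP15 over MT and rSBP15 over miR156-OE. In rSBP15 over MT 6 of 7 lie left of 0, Solyc12g089040.3 farthest at -0.48, and Solyc12g099830.2 lies right of 0 at 0.25.

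The genes nearest to each of the 5 in the pair of deposited log fold changes, by straight-line distance over 3 genotypes and 6 libraries, are named by ID as a description. For CPD they were Solyc08g068310.3 at a distance of 0.0046 and Solyc11g010190.1 at 0.0064. For DWARF they were Solyc06g066060.3 at 0.0065 and Solyc02g089730.1 at 0.018. For DET2 they were Solyc11g032090.3 at 0.0057 and Solyc07g026710.3 at 0.0073. For BRI1 they were Solyc10g007075.1 at 0.0011 and Solyc01g016720.2 at 0.0012, and for BZR1 Solyc07g061910.1 at 0.00052 and Solyc05g006240.4 at 0.0027. BRI1 and BZR1 lie where genes are dense, and such nearness in 2 values per gene says nothing of shared function.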

How the data were processed

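RNA was sequenced from 6 libraries, 2 per genotype. Per the labels' protocols, poly(A) RNA was selected and stranded TruSeq libraries were made. Per the submitters' processing notes, HISAT2 and StringTie were used. Versions, genome build, annotation, filters and the test are not given in the sources used here. The authors deposited 2 tables of log fold changes and p-values, written with decimal commas, and per the file headers the columns are logFC and P.Value. No counts or levels were used.

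Benjamini-Hochberg adjustment of the authors' p-values ran over genes with a log fold change other than 0, and genes at exactly 0 are called undetected. Residual variances were recovered by inverting limma's moderated test (limma 3.58.1, R 4.3.3). A gene detected in 1 library has a variance equal to its squared log fold change, and 1198 genes of the miR156-OE table and 1226 of the rSBP15 table lay within 1e-06 in p of 1 curve. Its prior degrees of freedom were 0.347 and 0.360, which limma also returned from the recovered variances. The deposited p-values thus match an unpaired fit of 2 libraries against 2. Both tables list an identical change for 402 genes, with variances within a relative 6.4e-05, and were treated as sharing their MT values. For rSBP15 over miR156-OE both variances were summed, the largest value possible, and moderation was refitted over 25657 genes. Recovery, the overlap rule and the fits were run on data simulated under the same model, which cannot show that the authors used it.

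The 5 genes, the 7 further IDs, the tests and the alternatives were chosen with earlier results of these data known. All 5 genes are reported whatever their result, with the 2 nearest genes of each. Of the 5 names, 4 matched a symbol or synonym in the RefSeq table, on the chromosome that the ID gives. The name CPD matched none, so its identity rests on the gene ID alone. No sequences are printed.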

Additional observations from a re-analysis of the deposited data

Results flagged for a closer look

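CPD was listed on opposite sides of MT in the lines, at 0.22 in miR156-OE over MT and at -0.65 in rSBP15 over MT in the authors' deposited tables. Neither side passed the limma-type test, with adjusted p = 0.339 in miR156-OE over MT (0.143 to 0.525 over the 5 alternatives) and 0.0564 in rSBP15 over MT (0.0089 to 0.121). Its libraries could not overlap with those of MT in either comparison. Such separation held for 37.9% of detected genes in miR156-OE over MT and for 62.3% in rSBP15 over MT. The share of genes with both separations and opposite signs was not counted. The difference, -0.87 for rSBP15 over miR156-OE, had an adjusted p of 0.0991 under the largest residual variance (limma-type test) and of 0.0048 to 0.334 over the 5 alternatives. The labels give no batch, so growth, harvest and library preparation cannot be told apart from genotype.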

How the results depend on the processing

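No paired analysis was possible because single libraries have no values in the tables, and no replicate could be left out in turn. The alternatives change the test alone, so the log fold changes of the 5 genes kept their signs. The number of the 5 genes past the threshold was 0 as reported in each comparison. Over all genes 0.0201% passed in miR156-OE over MT, 5.58% in rSBP15 over MT and 0% in rSBP15 over miR156-OE. In miR156-OE over MT the number was 1 at an unadjusted p under 0.05, beside 13.2% of all genes, and 0 under the other alternatives. In rSBP15 over MT it was 2 with moderation refitted on detected genes alone, beside 14.7% of all genes. With all 6 libraries it was 1 under the largest and 1 under the smallest residual variance, beside 11.1% and 19.5%. At an unadjusted p under 0.05 it was 2, beside 33.3%. In rSBP15 over miR156-OE, where the moderation was refitted from the start, it was 1 under the mean residual variance, beside 7.77%. With all 6 libraries it was 1 and 2 under the largest and smallest, beside 14.4% and 23.2%. At an unadjusted p under 0.05 it was 2, beside 21.7%. It stayed at 0 in both with adjustment over all rows, without moderation and at a threshold of 0.01. The genes concerned were CPD and DWARF. Over 5 alternatives the adjusted p of CPD ran from 0.143 to 0.525 in miR156-OE over MT and from 0.0089 to 0.121 in rSBP15 over MT, and that of DWARF from 0.952 to 1 and from 0.0462 to 0.153. A fit of all 6 libraries assumes equal variances, whereas for DWARF, BRI1 and BZR1 the miR156-OE replicates lay farther apart. Over all detected genes the median standard error was also larger in miR156-OE over MT, at 0.0624 against 0.0514 in rSBP15 over MT. Depth is unknown, and 2 libraries per genotype limit what can be called.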
